A study of Mus musculus with 12 samples.

Results

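The genes of the vascular endothelial growth factor (VEGF) system were followed in mouse embryonic lungs grown outside the body with or without a stiff barrier around them. All 10 genes chosen by symbol were found among the 24421 gene symbols of the count table. They comprise the 5 ligand genes Vegfa, Vegfb, Vegfc, Figf (the table's symbol for VEGF-D) and Pgf, the 3 receptor tyrosine kinase genes Kdr, Flt1 and Flt4, and the neuropilin genes Nrp1 and Nrp2. Whole lungs of wild-type CD-1 fetuses were taken at E12.5 into Matrigel drops at an air-liquid interface, and RNA of each library was sequenced in bulk. In the Day 2 compression group (4 libraries), a 20% solution of the polymer PEG-HCC was hardened around the lung with a two-photon laser the day after isolation, to restrict its growth for 2 days. In the Day 2 control group (4 libraries), the same amount of polymer was added and left uncrosslinked for the same time. The Day 0 group (4 libraries) was sampled when treatment began, and its labels list 20% PEG-HCC too. Hardened polymer and restricted growth came together in 1 group, and time in culture came together with the length of exposure to the polymer solution, so these cannot be told apart. The explants have no circulation of the body behind them, and nothing in the labels tells if the libraries of 1 group are separate animals, so p-values measure the spread between these libraries, which may be technical.

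VEGF-A is the main growth factor of blood vessels and in the developing lung is made largely by the epithelium, while its receptors sit on endothelial cells. KDR (VEGFR2) carries most of the growth signal, FLT1 (VEGFR1) binds VEGF-A tightly and acts mostly as a decoy, including in a soluble form, and FLT4 (VEGFR3) is the receptor of VEGF-C and VEGF-D and marks lymphatic vessels. VEGF-B and placental growth factor (Pgf) bind FLT1, and neuropilins are co-receptors that also bind class 3 semaphorins and are made by neurons and mesenchyme as well as by vessels. Counts were summed per gene, so soluble and membrane forms of Flt1, or the splice forms of Vegfa, cannot be told apart.

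In GRCm38 (mm10), Vegfa lies on chromosome 17 (46016993 to 46032369, minus strand), Vegfb on chromosome 19 (6982473 to 6987651, minus), Vegfc on chromosome 8 (54077606 to 54187096, plus), Figf on chromosome X (164373378 to 164402650, plus) and Pgf on chromosome 12 (85166635 to 85177790, minus). Kdr (75932827 to 75978458, minus) and Flt1 (147561604 to 147726011, minus) share chromosome 5, Flt4 lies on chromosome 11 (49609263 to 49652739, plus), Nrp1 on chromosome 8 (128358604 to 128503363, plus) and Nrp2 on chromosome 1 (62703285 to 62818695, plus). Exons of 9 of the 10 genes share no base with another annotated gene, and 0.818% of the exon bases of Nrp1 lie under the microRNA gene Mir1903 on the same strand. The promoter windows of the members with the largest changes over culture (Kdr and Flt1, which fell, and Figf, which rose) and of Vegfa are shown, each from 250 bases before to 50 bases after the start of a RefSeq gene model (build GRCm38.p6), in the direction of transcription. Capitals mark GCGTG on either strand (CACGC where it lies on the other strand), a core of the element bound by hypoxia-inducible factors. The Figf window and the Vegfa window shown hold none, and the second Vegfa window (chr17:46025114-46025413, not shown) holds 1 GCGTG and 1 ACGTG.
Kdr promoter, chr5:75978406-75978705, minus strand: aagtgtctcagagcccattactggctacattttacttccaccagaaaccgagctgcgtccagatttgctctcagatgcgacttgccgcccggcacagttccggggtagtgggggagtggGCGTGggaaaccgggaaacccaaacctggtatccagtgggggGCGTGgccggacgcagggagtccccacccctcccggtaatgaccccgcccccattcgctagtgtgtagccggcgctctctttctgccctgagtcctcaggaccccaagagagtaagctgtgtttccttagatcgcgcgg
Flt1 promoter, chr5:147725962-147726261, minus strand: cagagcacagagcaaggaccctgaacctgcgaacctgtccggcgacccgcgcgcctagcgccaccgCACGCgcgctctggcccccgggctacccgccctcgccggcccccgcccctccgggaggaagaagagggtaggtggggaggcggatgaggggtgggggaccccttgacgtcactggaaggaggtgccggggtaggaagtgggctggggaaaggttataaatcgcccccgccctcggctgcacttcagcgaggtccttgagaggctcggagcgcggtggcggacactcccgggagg
Figf promoter, chrX:164373272-164373571, plus strand: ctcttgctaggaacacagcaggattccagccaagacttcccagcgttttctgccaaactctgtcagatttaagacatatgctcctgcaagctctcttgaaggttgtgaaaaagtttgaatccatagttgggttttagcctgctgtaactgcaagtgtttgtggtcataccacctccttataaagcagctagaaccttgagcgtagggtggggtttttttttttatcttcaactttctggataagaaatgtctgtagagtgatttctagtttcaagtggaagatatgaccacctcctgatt
Vegfa promoter, chr17:46032328-46032627, minus strand: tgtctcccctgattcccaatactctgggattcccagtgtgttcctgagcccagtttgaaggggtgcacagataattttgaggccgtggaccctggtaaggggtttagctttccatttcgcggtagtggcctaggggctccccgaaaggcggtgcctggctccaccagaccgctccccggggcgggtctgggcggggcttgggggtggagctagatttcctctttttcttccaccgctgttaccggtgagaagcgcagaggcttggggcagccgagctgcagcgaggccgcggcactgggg

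All 10 members matched RefSeq, with 12 windows in all since Vegfa and Pgf have 2 each. Of these windows 7 held GCGTG or ACGTG on at least 1 strand (7 of 10 members, Vegfa only through its second window). Of all 32851 RefSeq windows of this length, 43.8% did, with both strands searched. Bases outside the windows were not searched. The sequences CCGGAAG and CAGGAAG, forms of the site bound by ETS factors of endothelial cells among others, were in none of the 12 windows, against 20.9% of all windows. Shorter or other forms of this site were not searched, so their absence is not shown. The Figf window stood apart from the other members in its base composition, with 42.0% G and C and 2 CpG dinucleotides. The first window of each of the other 9 members had 60.7% to 75.3% G and C and 14 to 37 CpG dinucleotides, and the median over all windows was 52.7% and 7. A match describes these letters and shows no binding.

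Total counts were 25680019 to 31739019 under compression, 15452117 to 30805341 in controls and 13979871 to 33249761 at Day 0. All 10 members passed the filter on low counts that left 15246 genes. The lowest count of any member was 18, of Flt1 in control replicate 1, above the limit of 3 counts that a count of 0 would allow. The lung label held in every library: genes of lung epithelium summed to 2678 to 3355 CPM under compression, 2456 to 2711 CPM in controls and 1550 to 1786 CPM at Day 0, where CPM is the read count over the TMM-scaled library size. Control replicate 4 also held liver transcripts, with albumin (Alb) at 638 CPM against 2.23 CPM or less in the other 11 libraries. Xist stood at 2237 to 2771 CPM in compression replicate 1 and control replicates 2 and 3 (female) and below 1 CPM elsewhere. Compression replicates 2 and 3, described as 13A and 13B, may share a source, and results were also computed with them summed.

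Per kilobase of exon, the scale on which genes can be compared, Vegfa was the most abundant member in every group, with 95.6 ± 1.78 CPM per kb under compression, 107.7 ± 4.38 in controls and 83.9 ± 24.0 at Day 0 (SD, n = 4 each). In both Day 2 groups Vegfb and Figf came next. Under compression these averaged 34.5 ± 6.05 and 30.5 ± 3.42 CPM per kb and in controls 31.2 ± 3.32 and 28.0 ± 2.75, and their ranges overlapped in both groups. Nrp1 (18.2 and 16.3 CPM per kb under compression and in controls) and Nrp2 (14.05 and 13.9) followed with overlapping ranges, and then Pgf (9.91 and 9.22). Kdr (3.56 and 3.33), Vegfc (2.99 and 2.67) and Flt4 (2.29 and 2.47) stood close together, and neighbours in this order overlapped. Flt1 was the lowest member in all groups, with 0.141 ± 0.0540 CPM per kb under compression, 0.111 ± 0.0803 in controls and 0.967 ± 0.374 at Day 0. At Day 0 the order differed below Vegfa and Vegfb (31.4): Pgf (18.9), Nrp1 (14.5), Kdr (10.7), Nrp2 (9.72) and Figf (9.60) formed a run of overlapping neighbours above Vegfc (3.92) and Flt4 (2.89). Lengths were those of all annotated exons together, so a gene with long exons that are not used in lung is set too low on this scale.

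**Figure D1:**
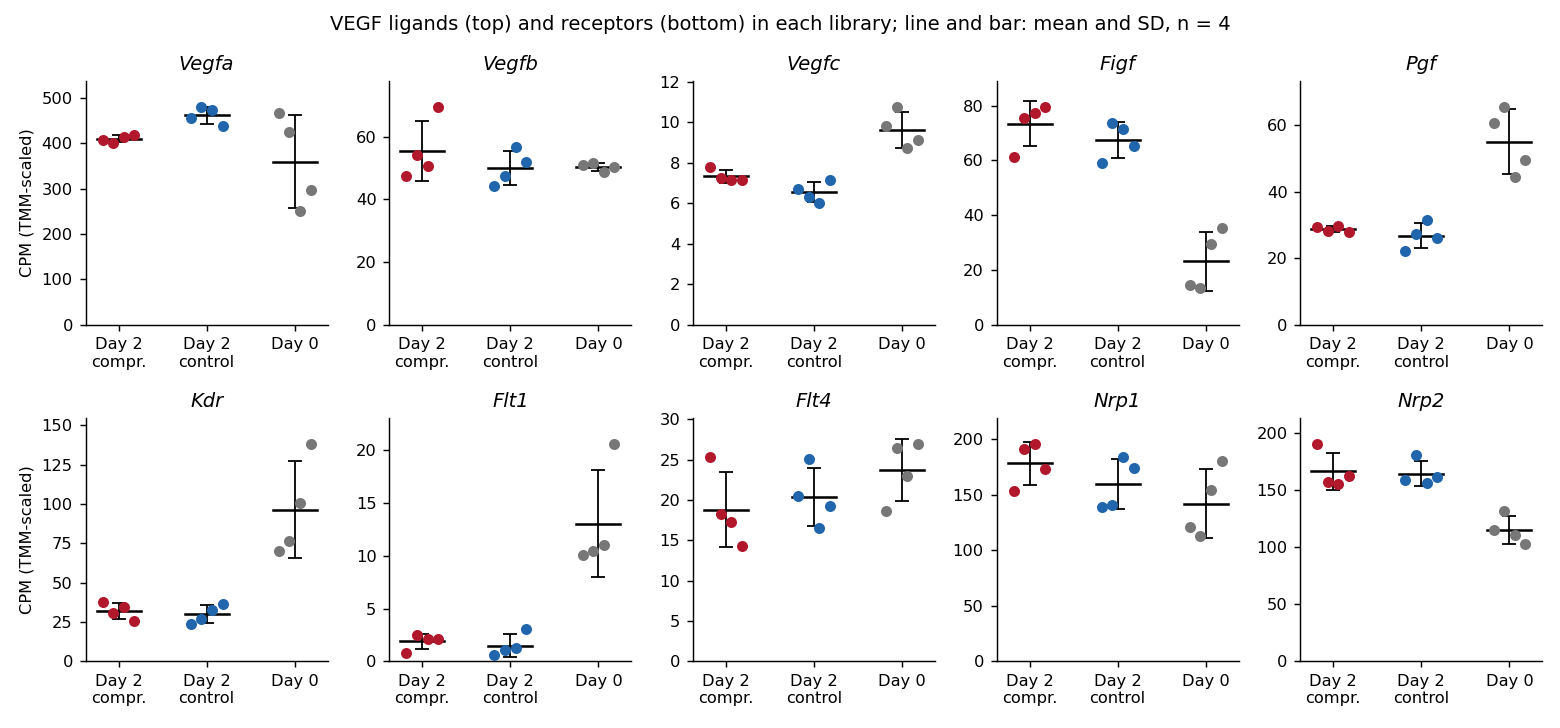
CPM of the 5 ligand genes (top row) and the 5 receptor and co-receptor genes (bottom row) in each of the 12 libraries, with the mean (line) and SD (bar) of each group of 4; each panel has its own linear axis from 0. Kdr, Flt1, Pgf and Vegfc lie lower and Figf and Nrp2 higher in all 8 Day 2 libraries than in all 4 Day 0 libraries, and the Day 0 points of Vegfa range from 249.8 to 467 CPM.

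The ligands changed in different directions over culture. Figf rose about 3-fold, Pgf fell about 2-fold and Vegfc fell by less, in compressed and in control lungs alike, while neither Vegfa nor Vegfb passed the test in either. Over all members, 6 of 10 passed at an adjusted p of 0.05 in compression against Day 0 (2 higher, 4 lower) and the same number in control against Day 0 (2 higher, 4 lower). Among all genes tested, 49.1% passed in compression against Day 0 (26.6% higher, 22.5% lower) and 40.2% in control against Day 0 (22.6% higher, 17.6% lower). The groups did not overlap for 6 members in each comparison, against 43.0% of all genes in the first and 37.9% in the second. At an unadjusted p under 0.05 there were 7 members in each, against 55.5% and 48.9% of all genes. Both comparisons use the same Day 0 libraries and are not independent of each other.

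Figf, whose product VEGF-D is a ligand of FLT4, stood at 61.3, 75.4, 77.4 and 79.5 CPM in the compression libraries, at 59.0, 73.7, 71.5 and 65.3 CPM in controls and at 14.7, 13.2, 29.3 and 35.3 CPM at Day 0. Every Day 2 library lay above every Day 0 library, and Day 0 replicates 3 and 4 lay above replicates 1 and 2. The log2 fold change was 1.65 (SE 0.26, adjusted p = 2.21e-04) for compression against Day 0, a 3.13-fold difference with a 95% interval of 2.13 to 4.61, and 1.52 (SE 0.26, adjusted p = 5.21e-04) for control against Day 0. Figf was 1 of 2 members that rose, and 596 of the 15246 genes had a larger fold change in control against Day 0.

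Pgf had 29.2, 28.2, 29.8 and 27.8 CPM under compression, 22.3, 27.2, 31.5 and 26.2 CPM in controls and 60.8, 65.4, 44.3 and 49.5 CPM at Day 0. The 4 compression libraries were within 2 CPM of each other, and no Day 2 library reached the lowest Day 0 library. The log2 fold change was -0.93 (SE 0.12, adjusted p = 3.37e-05) for compression against Day 0 and -1.04 (SE 0.12, adjusted p = 2.32e-05) for control against Day 0. Vegfc, the lymphatic growth factor, had 7.80, 7.24, 7.13 and 7.16 CPM under compression, 6.69, 6.31, 6.02 and 7.15 CPM in controls and 9.84, 10.7, 8.71 and 9.11 CPM at Day 0. It fell by 0.39 (SE 0.11, adjusted p = 0.00786) in compressed lungs and by 0.55 (SE 0.11, adjusted p = 0.00101) in controls on the log2 scale.

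Vegfa had 408, 399.9, 414 and 417 CPM under compression, 456, 479.7, 473 and 438 CPM in controls and 467, 424, 249.8 and 296 CPM at Day 0. The Day 0 libraries fell apart into replicates 1 and 2, at the level of the Day 2 libraries, and replicates 3 and 4, well below it. The sample descriptions number these libraries 3, 4, 21 and 23, with no meaning stated for the numbers. With this spread (SD 102.9 CPM) the log2 fold change of 0.36 for control against Day 0 (SE 0.15, adjusted p = 0.0705) and of 0.19 for compression against Day 0 (SE 0.15, adjusted p = 0.311) did not pass. The first of these passed without Day 0 replicate 1 (0.49, adjusted p = 0.0122) or without Day 0 replicate 2 (0.45, adjusted p = 0.0428). Vegfb had 47.5, 54.0, 50.7 and 69.4 CPM under compression, 44.3, 47.4, 56.6 and 51.8 CPM in controls and 50.9, 51.5, 48.6 and 50.3 CPM at Day 0, so all 3 groups overlapped. Its log2 fold changes were 0.14 for compression against Day 0 and -0.0093 for control against Day 0, and compression replicate 4 was the highest library.

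Of all ligand transcripts, counted per kilobase, Figf made up 17.5 ± 1.36% under compression and 15.6 ± 0.870% in controls, against 6.97 ± 4.06% at Day 0 (SD, n = 4 each). Pgf made up 5.73 ± 0.430% and 5.14 ± 0.494%, against 12.8 ± 0.687%. Vegfa held 55.2 ± 2.46% under compression, 60.3 ± 2.04% in controls and 55.9 ± 7.18% at Day 0. Its share did not differ from Day 0 beyond the spread in compressed lungs (two-sided exact permutation p = 0.857) or in controls (exact p = 0.371).

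**Figure D2:**
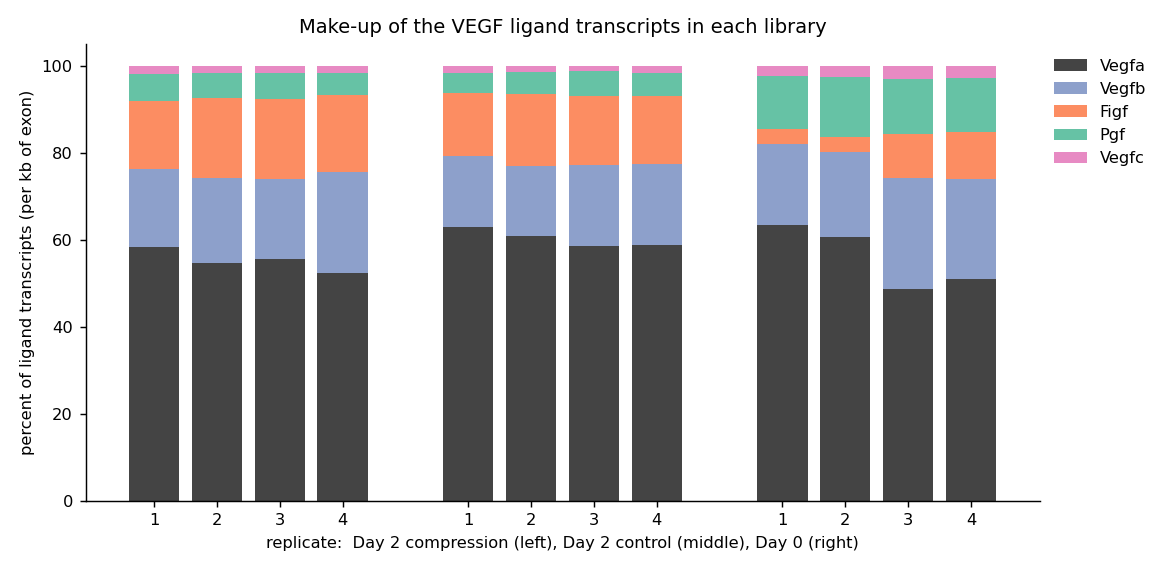
Share of each of the 5 ligand genes in the ligand transcripts of each library, in percent, from counts per kb of exon; the 4 bars on the left are Day 2 compression, the 4 in the middle Day 2 control and the 4 on the right Day 0, numbered by replicate. The Figf band is 14.5% to 18.5% of each Day 2 bar and 3.36% to 10.8% of each Day 0 bar, while the Pgf band is 12.2% to 13.8% at Day 0 and 6.16% or less at Day 2.

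Of the receptor tyrosine kinases, Kdr and Flt1 fell and Flt4 did not pass the test. Flt1 had 0.837, 2.48, 2.16 and 2.14 CPM under compression, 0.579, 1.06, 1.29 and 3.06 CPM in controls and 10.1, 10.5, 11.05 and 20.6 CPM at Day 0. The lowest Day 0 library thus lay about 3-fold above the highest Day 2 library, which was control replicate 4, the library with liver transcripts. Flt1 was 9.35-fold lower in controls than at Day 0 (95% interval 4.75 to 18.4; log2 fold change -3.22, SE 0.45, adjusted p = 1.20e-04), and only 12 of the 15246 genes had a lower fold change. Under compression it was 6.84-fold lower (3.59 to 13.04; log2 fold change -2.78, SE 0.43, adjusted p = 1.90e-04). Without control replicate 4 the log2 fold change in controls was -3.76, and without Day 0 replicate 4 it was -2.91 in controls and -2.48 under compression.

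Kdr had 37.8, 31.0, 34.3 and 25.6 CPM under compression, 23.9, 27.0, 32.6 and 36.7 CPM in controls and 70.4, 76.7, 100.5 and 138 CPM at Day 0. All Day 2 libraries lay below all Day 0 libraries. Its log2 fold change was -1.59 (SE 0.21, adjusted p = 4.90e-05) for compression against Day 0 and -1.69 (SE 0.21, adjusted p = 4.54e-05) for control against Day 0, falls of 3.00-fold and 3.23-fold. Flt4 had 25.4, 18.3, 17.3 and 14.2 CPM under compression, 20.4, 25.1, 16.6 and 19.3 CPM in controls and 18.7, 26.5, 23.0 and 27.0 CPM at Day 0, with overlap between all groups. Its log2 fold changes of -0.34 (95% interval -0.71 to 0.04, adjusted p = 0.125) and -0.22 (-0.60 to 0.15, adjusted p = 0.336) did not pass. For compression against Day 0 it passed without compression replicate 1, a female library with the highest Flt4 of its group (-0.54, adjusted p = 0.0116), without Day 0 replicate 1 (-0.47, adjusted p = 0.0456) and in the 9 male libraries (-0.51, adjusted p = 0.0106).

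**Figure D3:**
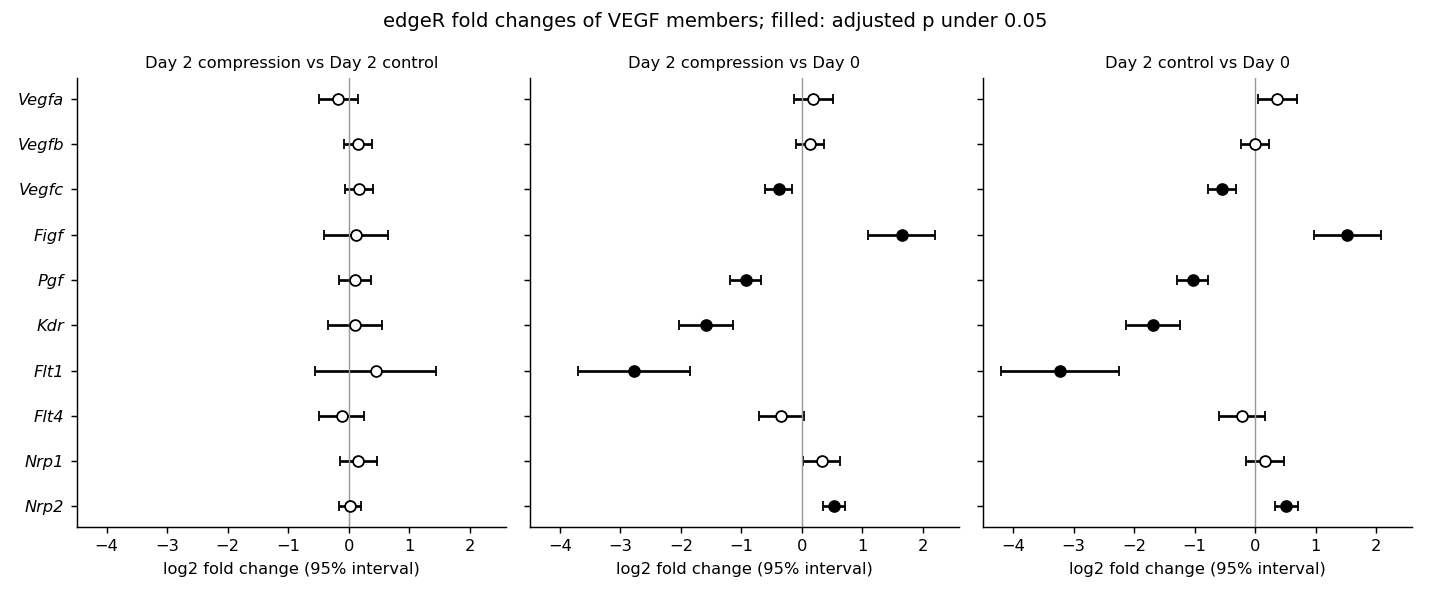
edgeR log2 fold changes (points) with 95% intervals (bars) of the 10 members in compression against control, compression against Day 0 and control against Day 0; filled points have an adjusted p under 0.05. No point is filled in compression against control; in the other panels Vegfc, Pgf, Kdr and Flt1 are filled left of 0 and Figf and Nrp2 right of 0.

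Kdr and Flt1 fell together with endothelial genes as a whole. Of 30 endothelial genes, none of them a VEGF receptor, 28 fell and none rose in compression against Day 0. The counts were equal in control against Day 0. Over all genes, 22.5% fell in compression against Day 0 and 17.6% in control against Day 0. The median log2 fold changes of the 30 genes were -2.02 and -2.27, against 0.02 over all genes. The angiopoietin receptor gene Tek had 3.13 CPM under compression, 2.76 CPM in controls and 23.1 CPM at Day 0, the secreted vessel factor gene Egfl7 16.8, 13.8 and 61.9 CPM, and the orphan receptor gene Tie1 7.46, 7.42 and 34.3 CPM. The endothelial adaptor gene She had 9.10, 8.89 and 31.8 CPM. The 2 that did not pass were Eng (40.5, 38.8 and 38.4 CPM) and Calcrl (10.1, 10.7 and 11.4 CPM), named here after their values were seen. The 30 genes summed to 213 to 323 CPM under compression, 181 to 314 CPM in controls and 749.5 to 1239 CPM at Day 0. In bulk RNA, fewer endothelial cells and less of these transcripts per cell cannot be told apart.

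Each receptor was therefore also set against the mean log2 CPM of the 30 endothelial genes in the same library. Kdr lay 3.08, 2.14, 2.34 and 2.07 log2 units above this mean under compression, 2.78, 2.55, 2.33 and 2.38 units in controls and 1.93, 1.94, 2.15 and 2.21 units at Day 0. Relative to these genes Kdr was 0.45 units higher in controls than at Day 0 (p = 0.0286 in an exact permutation test, two-sided, where no smaller value is possible with groups of 4), and 0.36 units higher under compression, where the groups overlapped (exact p = 0.171). The second value was 0.13 without compression replicate 1 and 0.69 (exact p = 0.0286) when only 6 endothelial genes (Pecam1, Cdh5, Tie1, Emcn, Erg and Esam) made up the mean. Flt1 went the other way, with relative levels of -2.29, -1.46, -1.60 and -1.47 under compression, -2.41, -2.02, -2.25 and -1.17 in controls and -0.87, -0.93, -1.03 and -0.54 at Day 0. Its relative level differed from Day 0 by -0.86 under compression and -1.12 in controls (exact p = 0.0286 each). The first of these was -0.53 with exact p = 0.0571 with the 6 genes.

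Flt4 was 1.55 units higher relative to endothelial genes under compression and 1.88 units higher in controls than at Day 0, Nrp1 2.25 and 2.29 units, and Nrp2 2.43 and 2.62 units (exact p = 0.0286 each). The endothelial mean itself differed from Day 0 by -1.90 units under compression and -2.10 units in controls. A gene with steady CPM thus comes out higher on this scale, and these tests cannot separate a rise of the gene from the endothelial fall. Neither Flt4 nor Nrp1 passed in CPM, and neuropilins are also made outside vessels. Between compression and control the relative levels of the 5 genes differed by -0.33 to 0.26, within the spread (exact p between 0.343 and 0.857). Of the 15 such tests, 9 reached the smallest p, those of Flt4, Nrp1 and Nrp2 against Day 0 among them, and these p-values are not adjusted. The ratio of Flt1 to Kdr transcripts per kilobase, a measure that no library scaling affects, was 0.0148, 0.0535, 0.0422 and 0.0557 under compression, 0.0162, 0.0264, 0.0265 and 0.0559 in controls and 0.0959, 0.0913, 0.0735 and 0.0996 at Day 0. On the log2 scale it differed from Day 0 by -1.28 under compression and by -1.67 in controls (exact p = 0.0286 each), and the difference of 0.39 between compression and control lay within the spread (exact p = 0.571). Without compression replicate 1, whose ratio was the lowest of its group, the difference was -0.84 for compression against Day 0 and 0.83 for compression against control. Compression against control also gave 0.72 without control replicate 4, 0.12 without control replicate 1, and 0.21 or 0.19 with compression replicate 2 or 4 left out.

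**Figure D4:**
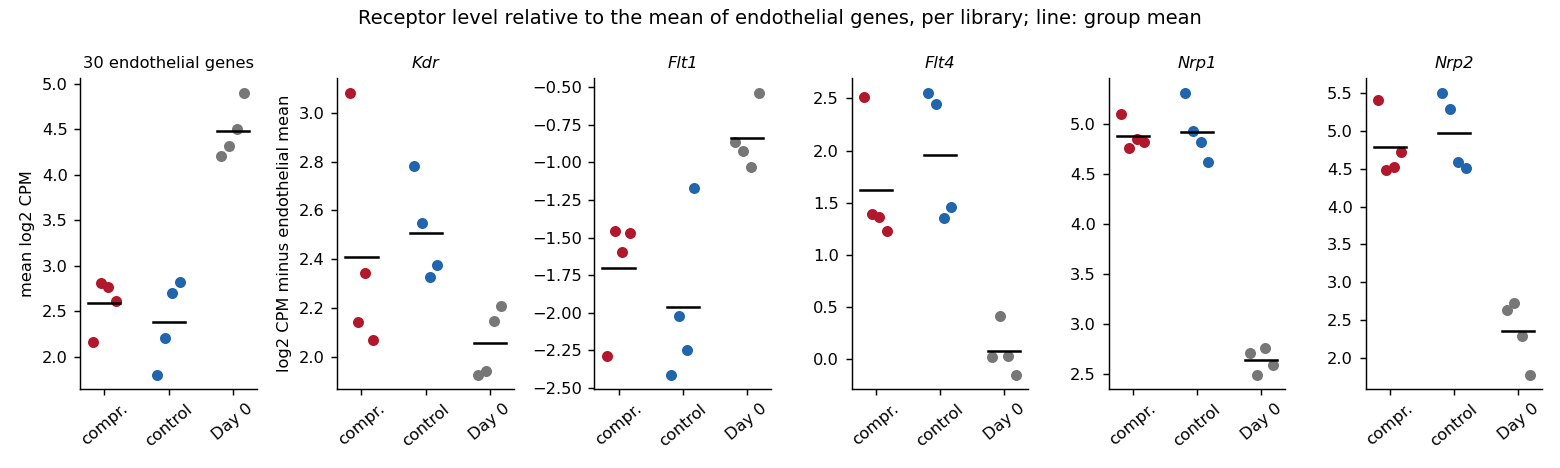
The left panel shows the mean log2 CPM of 30 endothelial genes in each library, and the other panels the log2 CPM of each receptor gene minus that mean (points: libraries; line: group mean; axes differ and do not start at 0). Flt1 lies lower relative to endothelial genes in all 8 Day 2 libraries than in the 4 Day 0 libraries, Flt4, Nrp1 and Nrp2 lie higher, and Kdr overlaps in part.

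Of the neuropilins, Nrp2 rose and Nrp1 did not pass. Nrp2, the co-receptor of VEGF-C and of class 3 semaphorins, had 191, 157, 155 and 162 CPM under compression, 159, 181, 156 and 162 CPM in controls and 115, 132, 111 and 103 CPM at Day 0. It rose by 0.53 on the log2 scale in compressed lungs (SE 0.09, adjusted p = 1.90e-04) and by 0.52 in controls (SE 0.09, adjusted p = 3.30e-04), without overlap. Nrp1, which presents VEGF-A to KDR, had 153, 191, 196 and 173 CPM under compression, 139, 141, 184 and 174 CPM in controls and 121, 112, 154 and 181 CPM at Day 0. All groups overlapped, and the log2 fold changes of 0.33 for compression against Day 0 (95% interval 0.01 to 0.64, adjusted p = 0.0768) and 0.17 for control against Day 0 (-0.15 to 0.48, adjusted p = 0.388) did not pass. The first passed without Day 0 replicate 4 (0.44, adjusted p = 0.0145).

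Compression against control asks what hardened polymer around the lung does at a matched time, and the series names VEGF in its title. None of the 10 members passed, and 0.00% of all 15246 genes did with edgeR, while 12.1% had an unadjusted p under 0.05 (no member among them) and DESeq2 called 72 genes. Vegfa was the 1 member whose groups did not overlap, against 5.77% of all genes (3.07% higher and 2.70% lower under compression). Its 4 compression libraries (399.9 to 417 CPM) lay below all 4 controls (438 to 479.7 CPM), with means of 410 ± 7.64 and 462 ± 18.8 CPM and a log2 fold change of -0.17 (95% interval -0.49 to 0.15). The unadjusted p of Vegfa was 0.272 in the fit of all 12 libraries, whose spread includes the Day 0 group, and 0.00838 in a fit of the 8 Day 2 libraries, where the adjusted p was 0.339. The exact permutation test over these 8 libraries gave p = 0.0286, its smallest value. Groups of 4 that do not overlap always give this value, so the test restates the separation and adds no support to it. The fold change lay between -0.19 and -0.15 with any 1 library left out and was -0.17 with compression replicates 2 and 3 summed, and -0.12 in the 9 male libraries.

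Vegfa also made up less of the ligand transcripts in compressed lungs, with 58.2%, 54.6%, 55.7% and 52.3% in the compression libraries and 63.0%, 60.8%, 58.5% and 58.9% in controls. The groups did not overlap, with a difference of -5.10 percentage points (exact p = 0.0286), though the nearest libraries were 58.2% and 58.5%. This share contains the level of Vegfa and is not independent of it. Markers of other cells overlapped between these groups in summed level, and none of these genes passed after adjustment. At an unadjusted p under 0.05 there were 7 of 10 leukocyte and 6 of 7 mesothelial genes, against 12.1% of all genes. The lung epithelial list had 3 of 12 such genes and the alveolar type 1 list 1 of 10. The 10 leukocyte genes summed to 252 to 302 CPM under compression and 161 to 271 CPM in controls, with a median log2 fold change of 0.47 against 0.0039 over all genes. Among controls only replicate 4, the library with liver transcripts, reached the compression range (271 CPM), and the others had 161, 182 and 185 CPM. The 7 mesothelial genes summed to 264 to 275 and 247 to 355 CPM (median -0.31), the 12 lung epithelial genes to 2678 to 3355 and 2456 to 2711 CPM, and the 10 genes of alveolar type 1 cells, a known source of VEGF-A, to 731 to 1029 and 902 to 1013 CPM. Their part in the Vegfa difference was not tested.

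The other 9 members had log2 fold changes between -0.12 (Flt4) and 0.45 (Flt1) for compression against control. The 95% intervals were -0.08 to 0.38 for Vegfb, -0.06 to 0.39 for Vegfc, -0.41 to 0.66 for Figf, -0.16 to 0.36 for Pgf, -0.34 to 0.55 for Kdr, -0.49 to 0.26 for Flt4, -0.15 to 0.47 for Nrp1 and -0.17 to 0.20 for Nrp2, and differences within these intervals are not excluded. Flt1 had the widest interval (-0.55 to 1.45), and without control replicate 4, whose 3.06 CPM was the highest control, its fold change was 0.98 (unadjusted p = 0.0322, adjusted p = 0.303), while it was 0.17 (adjusted p = 0.941) without control replicate 1, the lowest control. Vegfc was higher in compressed than in control lungs in 15 of the 16 pairs of libraries (exact p = 0.0571).

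Around the members, genes that VEGF is known to induce in endothelium mostly fell over culture. Of 14 such genes, 2 rose and 8 fell in each comparison with Day 0, with median log2 fold changes of -0.49 under compression and -0.69 in controls. Over all genes, 26.6% rose and 22.5% fell in compression against Day 0, and 22.6% and 17.6% in control against Day 0. The 30 endothelial genes fell by more (medians -2.02 and -2.27), and the 14 genes were not set against the endothelial mean. The Notch ligand gene Dll4 had 11.02 CPM under compression, 11.2 CPM in controls and 29.2 CPM at Day 0, and the tip cell gene Esm1 1.21, 0.781 and 4.20 CPM. Hhex (4.55, 2.91 and 7.57 CPM) and the chemokine receptor gene Cxcr4 (29.8, 21.0 and 42.7 CPM) also fell in both Day 2 groups. Nrarp (12.3, 11.1 and 7.27 CPM) and Angpt2, a ligand of Tek (24.6, 24.9 and 18.1 CPM), rose in both. None of the 14 passed between compression and control.

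Of 26 measured genes of receptor signalling and traffic, 3 rose and 8 fell in compression against Day 0, and 2 rose and 9 fell in control against Day 0. Over all genes, 49.1% passed in the first comparison and 40.2% in the second, so these counts are below or near that share. The phospholipase gene Plcg1, which binds activated KDR, had 129 CPM under compression, 136 CPM in controls and 212 CPM at Day 0. The endothelial phosphatase gene Ptprb had 2.58, 3.09 and 14.2 CPM, the Src-family kinase gene Fyn 45.1, 49.3 and 74.2 CPM, and the focal adhesion kinase gene Ptk2 123, 128 and 161 CPM. Among 16 genes of ligand processing, other regulators of vessel growth and class 3 semaphorins, 3 rose and 6 fell in each, beside the same shares over all genes. Sema3e rose to 181 CPM under compression and 176 CPM in controls, against 58.3 CPM at Day 0, and Sema3b to 24.2 and 24.1 CPM against 7.56 CPM. Both vasohibin genes fell: Vash1, whose product limits vessel growth, had 39.2, 41.2 and 122 CPM and Vash2 58.5, 59.6 and 108.8 CPM. Of 5 measured lymphatic genes, Pdpn rose (44.9, 40.3 and 16.8 CPM; it is also made by alveolar type 1 cells) and Prox1, Lyve1, Mmrn1 and Reln did not pass in either.

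Oxygen sensing controls Vegfa in many tissues through hypoxia-inducible factors (HIF). Of 20 HIF target genes, Vegfa not among them, 9 rose and 3 fell in compression against Day 0, and 6 rose and 4 fell in control against Day 0, with median log2 fold changes of 0.32 and 0.25. Over all genes, 49.1% passed in the first comparison and 40.2% in the second. Pdk1, a brake on mitochondrial glucose oxidation, had 174 CPM under compression, 178 CPM in controls and 104 CPM at Day 0, and the collagen hydroxylase gene P4ha2 50.4, 52.0 and 36.7 CPM. The glycolysis genes Hk2 (108, 112 and 192 CPM) and Pfkfb3 (105, 105 and 199 CPM) fell. Of 12 regulator genes, the HIF subunit gene Epas1 rose (37.6, 27.4 and 11.4 CPM) and Hif3a fell (118, 121 and 176 CPM) in both, and under compression Zfp36l1 also rose and Hif1an fell. The regulator counts were below the share over all genes. Within Day 0 the 20 HIF targets summed to 4188 and 3977 CPM in replicates 1 and 2 and to 2561 and 2731 CPM in replicates 3 and 4, so the same pair of libraries was low for Vegfa and for this list.

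**Figure D5:**
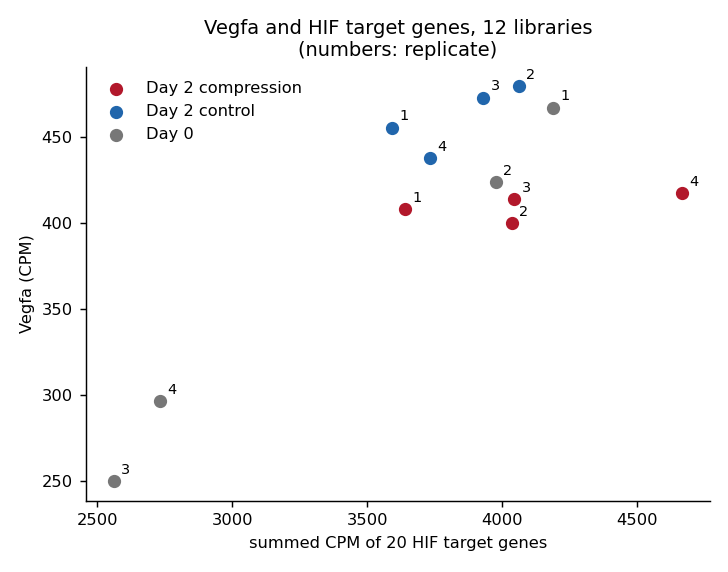
Vegfa in CPM against the summed CPM of 20 HIF target genes in each library, with replicate numbers beside the points; neither axis starts at 0. Day 0 replicates 3 and 4 lie at the lower left (249.8 and 296 CPM of Vegfa), apart from Day 0 replicates 1 and 2 and the Day 2 libraries, and the compression points lie below the control points.

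Genes whose level followed a member most closely over the 12 libraries were sought among 11234 genes of at least 5 CPM, as a description, since all share the same libraries and the difference between days. For Vegfa these were Max (Pearson r = 0.94), the mitochondrial kinase gene Ak4 (0.93), the HIF target gene Higd1a (0.93), the Wnt receptor ligase gene Znrf3 (0.91) and Sik1 (0.91). After group means were removed, r was 0.96 for Ak4, 0.93 for Max, 0.92 for Higd1a, and 0.86 for both Znrf3 and Sik1. Removing group means leaves the split within Day 0 in place. There log2 CPM of Vegfa was 8.87 and 8.73 in replicates 1 and 2, and 7.97 and 8.21 in replicates 3 and 4. In controls it spanned only 8.77 to 8.91 and under compression 8.64 to 8.71, so these r rest largely on Day 0. For Kdr they were Ifnar1 (0.99), She (0.98), Tspan18 (0.98), Arhgef15 (0.98) and Tshz2 (0.98), of which She and Arhgef15 are in the endothelial list. For Flt4 the closest was the lymphatic gene Mmrn1 (0.89), followed by Ints4, Gon4l, Adar and Dhx57 (0.86 to 0.87). For Figf they were Fgf10, the growth factor of distal lung mesenchyme that drives branching (0.99), Clic6 (0.99), H1f0 (0.99), Adgrg2 (0.98) and Tmem179b (0.98). The r of Figf with Fgf10 was 0.95 after group means were removed. It too rests largely on Day 0, where log2 CPM of Figf was 3.88, 3.73, 4.88 and 5.14. In controls Figf spanned 5.88 to 6.21 and under compression 5.94 to 6.31.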

How the data were processed

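RNA was measured by sequencing of 12 libraries of fetal lung explants in 3 groups of 4, with groups and replicate numbers from the labels. The authors deposited raw read counts per gene symbol, 1 column per library. Per the submitters' processing notes they used fastp and STAR and the mm10 build. Versions, the counting tool, the annotation and the strand setting were not given in the sources used here.

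From these counts, genes were kept by filterByExpr (min.count 10, min.total.count 15) and scaled with TMM in edgeR 4.0.16 (R 4.3.3). All 12 libraries entered 1 robust quasi-likelihood fit with group as the only term, and p-values were adjusted over all 15246 genes by the Benjamini-Hochberg method (threshold 0.05). A log2 fold change has the later or compressed group on top. SEs were derived from the F statistic. Log2 CPM used a prior count of 2. Exon lengths and coordinates came from GENCODE M21 (GRCm38), where Figf is called Vegfd, and promoters from RefSeq. Single values were compared with two-sided exact permutation tests over 70 relabellings, and the edgeR code was tested on simulated data.

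The members and gene lists were chosen with earlier results of these data known. Every member is named, up to 4 genes of each other list with the smallest p (mean of at least 1 CPM), and the 5 genes closest to Vegfa, Kdr, Flt4 and Figf by Pearson correlation. Alternatives were RLE, upper-quartile or no scaling, other count filters, DESeq2 1.42.0, limma-voom (limma 3.58.1), fits of 8 libraries, a replicate block, summed or male libraries (Xist below 10 CPM) and each library left out.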

Additional observations from a re-analysis of the deposited data

Results flagged for a closer look

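In 30 groups of 4 values (10 genes in 3 groups), 2 held a library far from the other 3, where chance alone gives about 1 in 20. Flt1 stood at 20.6 CPM in Day 0 replicate 4, and the nearest other Day 0 library had 11.05 CPM. That library was also the highest of Day 0 for Kdr (138 CPM) and for the summed endothelial genes (1239 CPM). Vegfc stood at 7.80 CPM in compression replicate 1, a female library, and at 7.13 to 7.24 CPM in the other 3 compression libraries.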

How the results depend on the processing

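The 6 members called against Day 0 (Vegfc, Figf, Pgf, Kdr, Flt1 and Nrp2) kept their direction and stayed past the threshold in both comparisons under all 11 other settings and with each of the 12 libraries left out. For compression against control no member was called under any of them, while the number of genes called was 0 with edgeR, 72 with DESeq2, 6 with limma-voom and 4 in the fit of 8 libraries, and ranged from 0 to 53 with 1 library left out (53 without control replicate 4, 19 without compression replicate 1). Signs turned for members with fold changes near 0. In compression against control, Nrp2 was -0.017 in male libraries and ranged from -0.058 to 0.068 with 1 library left out, and Flt4 ranged from -0.30 to 0.0053 (without control replicate 2). In control against Day 0, Vegfb was 0.0092 with upper-quartile scaling and 0.00693 with library totals only, and ranged from -0.090 to 0.033 with 1 library left out. In compression against Day 0 it ranged from -0.0073 (without compression replicate 4) to 0.19. Vegfa passed in control against Day 0 with upper-quartile scaling (0.39), library totals (0.38) and limma-voom (0.41). Deviations of same-numbered libraries were only weakly correlated (between -0.18 and 0.17). Between Day 0 and control all of these correlations were above 0 (0.049 to 0.11). With 4 libraries a group this check cannot settle whether the numbers pair them. With the replicate number as a block, 7 members were called in compression against Day 0, Nrp1 being added (0.35, adjusted p = 0.0139), 6 in control against Day 0 and 0 in compression against control. Male libraries held 2 controls and 3 compression libraries. With 1 library left out the exact tests cannot go below p = 0.0571. The limit of 3 counts covers counting error only, and Flt1, with Day 2 counts of 18 to 71, was the least precisely measured member.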

Other observations

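Of 10 pericyte and smooth muscle genes, 1 rose and 3 fell in each comparison with Day 0, a share no higher than that over all genes (49.1% in compression against Day 0 and 40.2% in control against Day 0). The PDGF receptor gene Pdgfrb, which pericytes need for recruitment, had 63.6 CPM under compression, 63.8 CPM in controls and 158 CPM at Day 0, and the pericyte gene Rgs5 had 20.2, 13.9 and 40.7 CPM. Tagln, a smooth muscle gene, rose (37.1, 37.3 and 24.2 CPM) and Notch3 fell (172, 185 and 244 CPM). Of 10 alveolar type 1 genes, 7 rose and 2 fell in compression against Day 0, and 8 rose and 2 fell in control against Day 0. Examples are Emp2 (264, 256 and 52.3 CPM), Akap5 (168, 180.4 and 42.2 CPM), Hopx (52.5, 49.2 and 6.33 CPM) and Ager (108.5, 104 and 19.8 CPM).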
